A study of Mus musculus with 16 samples.

Results

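The cells compared here were the dividing and the resting cells among *ScxGFP* iPSC-derived cells under TGF-β2 treatment. They were chosen on measured values, by the summed UMIs of *Mki67*, *Top2a*, *Ube2c*, *Aurkb*, *Nusap1*, *Cdk1*, *Ccnb1*, and *Birc5*, 8 genes that cells use around mitosis. A UMI (unique molecular identifier) marks a captured mRNA molecule, so that PCR copies are counted a single time. Wells of T3, T6, and T9 with at least 200 detected genes and at least 3000 UMIs were taken, a cell with a sum of 4 or more was called dividing, and a cell with a sum of 0 was called resting. Of 3230 such wells, 983 were dividing (448 at T3, 335 at T6, and 200 at T9), 872 were resting, and 1375 with a sum of 1 to 3 lay between and entered neither class. The 1855 cells of both classes came from a series of 4594 single cells with at least 200 genes, and 217 cells of T3 to T9 had fewer than 3000 UMIs and were left out. The names dividing and resting stand for these mRNA classes. No measurement of DNA content or of division was used, so a resting cell here is a cell without a UMI of the 8 genes.

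The mouse iPSCs had been made by Sendai virus reprogramming of embryonic fibroblasts that carry GFP under regulatory sequence of *Scx*, the transcription factor that marks the tendon lineage, and were kept on feeder cells in 2i LIF. T0 cells were mesodermal cells before treatment, for which the labels give 4 days of induction in 5% FBS with insulin, transferrin, and selenium. The paper's methods instead place 4 days in this medium before the induction. Mesoderm was then induced with the Wnt agonist CHIR and the Hedgehog inhibitor cyclopamine, and a recovery without them followed. T3, T6, and T9 cells were T0 cells kept for 3, 6, or 9 further days with 10 ng/ml recombinant human TGF-β2 in 1% FBS. Live single cells (Hoechst+, SytoxRed-) were sorted into 384-well plates for CEL-Seq2, with 3 plates at each time point. The plates are the replicates, and no label says that they came from separate cultures. The p-values for shares of the classes over time rest on the spread between plates. Those for differences between the classes rest on the spread of that difference over the plates. Either spread may be technical. Untreated cultures of the same age were not analysed here. By the methods the serum was lowered to 1% FBS the day before TGF-β2 was added. Time, TGF-β2, and the longer stay in lower serum cannot be told apart in a comparison with T0.

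A cell that divides copies its DNA in S phase and separates the copies in mitosis. Genes for replication (the Mcm helicase, *Pcna*, ribonucleotide reductase) are transcribed before and during S phase, mostly under E2F factors. Genes for mitosis are repressed in resting cells and transcribed in G2, through a promoter element named the cell cycle genes homology region (CHR) and nearby CCAAT boxes. Cells that leave the cycle hold it off with inhibitors of cyclin-dependent kinases such as *Cdkn1a* (p21) and *Cdkn1c* (p57). In tendon, embryonic progenitors proliferate, and tenocytes later divide little while they lay down type I collagen, small leucine-rich proteoglycans, and lysyl oxidase.

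Promoter stretches are shown for 3 of the genes that defined the classes and for *Mcm6*, a subunit of the replicative helicase, because their promoters hold the letters of the mitotic and of the replicative elements. Each stretch is 150 bases of the gene's own strand in build GRCm38.p6 (RefSeq), from 155 to 6 bases before the start of the transcript. Capitals mark the box CCAAT (on the other strand ATTGG), the CHR letters TTTGAA (on the other strand TTCAAA), and the E2F-like letters TTTCGCGC (on the other strand GCGCGAAA) and TTTGGCGC (on the other strand GCGCCAAA). The *Ube2c* stretch is chr2:164769774-164769923 (+ strand), the *Top2a* stretch is chr11:99024195-99024344 (- strand), the *Cdk1* stretch is chr10:69352918-69353067 (- strand), and the *Mcm6* stretch is chr1:128359711-128359860 (- strand).
*Ube2c*: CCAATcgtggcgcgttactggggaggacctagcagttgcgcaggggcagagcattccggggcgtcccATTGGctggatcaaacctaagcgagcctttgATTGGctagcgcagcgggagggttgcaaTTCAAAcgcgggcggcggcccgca
*Top2a*: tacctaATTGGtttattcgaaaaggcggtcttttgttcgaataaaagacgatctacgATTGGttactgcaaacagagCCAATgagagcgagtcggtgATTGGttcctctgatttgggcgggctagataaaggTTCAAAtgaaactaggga
*Cdk1*: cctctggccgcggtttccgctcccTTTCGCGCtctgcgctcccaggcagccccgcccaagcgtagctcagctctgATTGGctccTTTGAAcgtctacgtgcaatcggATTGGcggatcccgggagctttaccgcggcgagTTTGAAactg
*Mcm6*: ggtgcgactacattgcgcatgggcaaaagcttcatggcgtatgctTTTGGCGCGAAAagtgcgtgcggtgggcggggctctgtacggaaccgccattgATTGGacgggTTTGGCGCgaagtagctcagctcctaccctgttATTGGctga

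The CHR letters begin 29 bases before the start in *Ube2c*, 23 bases before it in *Top2a*, and 71 and 15 bases before it in *Cdk1*, and the *Mcm6* stretch has none. *Mcm6* has TTTGGCGC at 110 and 47 bases before the start, the first of them overlapping a GCGCGAAA. Bases shortly after the RefSeq start were found in a transcript sequence for *Ube2c*, *Top2a*, and *Cdk1* but not for *Mcm6*. The *Mcm6* positions are therefore less certain. In RefSeq windows from 250 bases before to 50 after a start, on either strand, the CHR letters stood in 32 of 42 windows of the mitosis genes described below, that is 76.2%, and in 4 of 34 windows of the replication genes, or 11.8%. They stood in 17.9% of all 32851 windows and in 11.8% of the windows of the genes tested. An E2F-like match (TTTCGCGC or TTTGGCGC) stood in 9 of 34 replication windows and 1 of 42 mitosis windows. It stood in 0.813% of all windows and 1.70% of the windows of the genes tested. The CCAAT box stood in 33 of 42 mitosis and 19 of 34 replication windows. It stood in 37.4% of all windows and 38.1% of those of the genes tested. A match is a description of letters and does not show that a factor binds there. Of the 8 class-defining genes, 7 had a window, and the CHR letters stood in 4 of the 7, that is 57.1%.

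The share of dividing cells was lower at each later time point, whereas the resting share was uneven between plates. At T3, 43.2%, 45.5%, and 40.8% of the cells of the 3 plates were dividing, at T6 36.3%, 20.8%, and 36.5%, and at T9 17.1%, 15.5%, and 21.5%. The means were 43.1% ± 2.33 at T3, 31.2% ± 9.01 at T6, and 18.03% ± 3.09 at T9 (SD, n = 3 plates each). All T3 plates lay above all T6 and T9 plates, and the second T6 plate lay within the range of T9. An exact permutation of the 9 plates over the time points (between-group sum of squares) gave p = 0.00714 for a difference between them. For any pair of time points the smallest p that 3 plates against 3 allow is 0.10, and T9 and T3 reached it, while T9 and T6 did not (p = 0.20, exact permutation).

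**Figure D1:**
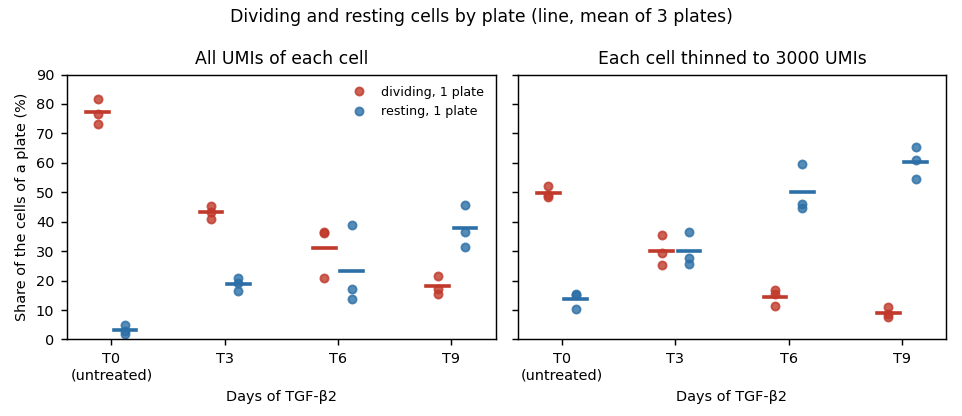
Share of the cells of a plate (%) that were dividing (red) or resting (blue) against days of TGF-β2, with a point for each plate and a line at the mean of 3 plates. The left panel uses all UMIs of a cell and the right panel 3000 UMIs drawn from each cell. The dividing means go from 77.1% at T0 to 18.03% at T9 on the left and from 49.9% to 9.02% on the right.

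Resting cells made up 20.8%, 16.5%, and 19.3% of the T3 plates, 17.3%, 38.9%, and 13.6% of the T6 plates, and 31.5%, 45.8%, and 36.6% of the T9 plates. The difference between time points did not pass the test (p = 0.107, exact permutation), and the second T6 plate stood apart from the other T6 plates in both classes. It was also the only T6 plate among the plates with fewer reads without a feature, a split given below. Without this plate p was 0.0107 for the resting share and 0.00357 for the dividing share.

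A cell with more UMIs has more chances to show a marker, so the shares were also taken after drawing 3000 UMIs from each cell and making the classes anew. The dividing means were then 30.0% at T3, 14.6% at T6, and 9.02% at T9 (p = 0.00357, exact permutation), and the resting means 30.0%, 50.0%, and 60.3% (p = 0.00714, exact permutation). The order of the time points was the same with and without thinning for the dividing share, and the size of the shares was not. Within the plates that had more reads without a feature the dividing share fell from T3 to T9 by 24.0 points (p = 0.167, exact permutation), and within the others by 25.7 points (p = 0.0667, exact permutation). With the few plates on each side neither value could be called. At T3, T6, and T9 alike the plates with fewer such reads had the lower dividing shares, and the reason was not tested.

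Before treatment most cells were in the dividing class. At T0, 81.8%, 76.5%, and 73.1% of the cells of the 3 plates were dividing (826 of 1071 cells in all), and 36 cells were resting. No T0 plate overlapped a treated plate, and T0 against T3 to T9 gave p = 0.00455 (exact permutation), the smallest that 3 plates against 9 allow. With 3000 UMIs from each cell the T0 mean was 49.9%. All 3 T0 plates were among those with more reads without a feature, whereas the treated plates were on both sides of that split.

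The 8 genes contributed unequally to the choice of cells. *Top2a*, the topoisomerase that untangles replicated DNA, had a UMI in 89.2% of dividing cells and supplied 41.1% of their marker UMIs. *Cdk1*, the mitotic kinase, had a UMI in 80.9% of dividing cells and supplied 16.7% of the UMIs, and *Birc5* (survivin), a subunit of the chromosomal passenger complex, in 71.6% and 12.8%. *Mki67*, the common stain for proliferating cells, was in 53.9%, *Ube2c*, the ubiquitin-conjugating enzyme of the anaphase-promoting complex, in 50.5%, the spindle protein gene *Nusap1* in 39.6%, *Aurkb*, the passenger complex kinase, in 37.7%, and *Ccnb1*, the cyclin partner of *Cdk1*, in 33.4%. A dividing cell had a median sum of 18 at T3 and of 10 at T6 as well as T9. Among the dividing cells 365 (37.1%) had a sum of 4 to 7, and the highest sum was 331.

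The border of the class ran through a continuous range. Just inside it 160 cells had a sum of 4 and a median of 8703.5 UMIs, and just outside it 276 cells had a sum of 3 and a median of 8432 UMIs. At the other border 872 cells had a sum of 0 (median 6593 UMIs) and 673 had a sum of 1 (median 7161 UMIs). These values describe the rule and carry no test.

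Dividing cells held more UMIs than resting cells of the same plate. The median UMI count of the dividing cells was between 1.37 and 1.88 times that of the resting cells, above it in 9 of 9 plates. Because a deeper cell reaches a sum of 4 more readily, the rule itself favours deep cells in the dividing class. Levels are therefore relative, with CPM standing for a gene's UMIs among 1000000 UMIs summed over the cells of the class on a plate. Genes over T3 to T9 were compared again in pairs of a dividing and a resting cell. The UMI counts of a pair lay within 10% of each other. The pairs numbered 39 to 68 on a plate, and their medians differed by a factor of 1.01 to 1.09.

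Cells with pluripotency, endoderm, or epithelial markers were more frequent in the dividing class. They were counted by raw UMIs, a cutoff that the deeper dividing cells reach more readily. The summed level of 8 pluripotency markers was 0 to 1120 CPM in the dividing cells and 1.09 to 84.7 CPM in the resting cells, higher in the dividing cells of 8 of 9 plates and highest in the second T9 plate. For 8 endoderm markers, of which *Afp* was at 0, it was 0 to 142 CPM against 0 to 9.46 CPM, likewise higher in 8 plates. At least 3 UMIs of either list were found in 52 of 983 dividing cells (5.29%) and 3 of 872 resting cells (0.344%). The comparison of genes over T3 to T9 was also repeated without these cells. Epithelial markers, several of which pluripotent cells also express, summed to 18.5 to 281 CPM in dividing and 13.4 to 71.8 CPM in resting cells, likewise higher in the dividing cells of 8 plates. At least 3 UMIs of them were found in 55 dividing cells (5.60%), of which 43 were among the 52, and in 10 resting cells (1.15%), of which 1 was among the 3, and on the first and the second T9 plate the shares were 17.2% and 20.7% against 1.69% and 3.51%. Endothelial markers summed to 39.2 to 108 CPM in dividing and 44.0 to 106 CPM in resting cells (*Tie1* and *Cldn5* at 0), neural markers to 160 to 1219 and 232 to 1174 CPM (*Neurod1* and *Sox1* at 0), skeletal muscle markers to 18.5 to 75.02 and 14.7 to 574 CPM, and blood markers to 0 to 10.1 and 0 to 9.46 CPM (*Cd52*, *Pf4*, and *Hba-a1* at 0). The dividing cells had the higher sum in 4, 6, 4, and 4 of 9 plates for these lists. In the first T6 plate endothelial markers were at 103 against 89.7 CPM, yet 22.2% against 6.67% of the cells had at least 3 UMIs of them.

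Of 8311 genes tested on UMI sums of each class and plate (edgeR's quasi-likelihood test with the plate as a block, 9 plates), 712 were higher in dividing cells, 8.57% of those tested, and 556 were lower, 6.69%, at a Benjamini-Hochberg adjusted p of 0.05. The differences were unequal in size. The median log2 difference of the higher genes was 0.84 and that of the lower genes -0.46, 285 genes were higher by 1 or more and 13 lower by 1 or more, and the median over all tested genes was -0.03. Without the cells with pluripotency or endoderm markers 492 of 8137 genes (6.05%) were higher and 382 (4.69%) lower, with those bearing epithelial markers left out as well 494 of 8091 (6.11%) and 385 (4.76%), and in the paired cells 189 of 5480 (3.45%) were higher and 80 (1.46%) lower. Of the genes called in all cells and tested in the pairs, 477 of 485 higher and 487 of 502 lower genes had the same sign there. All cells, the cells without pluripotency or endoderm markers, and the pairs alike called 184 genes higher and 60 lower, and each of these was also called without the cells bearing epithelial markers. The gene lists given next are counted over the members that passed the filter on low counts, which left out 3 of 48 mitosis, 2 of 36 replication, 8 of 28 proteoglycan, 6 of 18 p53 target, and 13 of 15 cartilage genes of the table and at most 3 of each other list.

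Transcripts of the rest of the division machinery were higher in the dividing class. These genes are known to vary together with the 8 markers, so their values describe the class. Of 45 tested mitosis genes 44 were higher, with a median log2 difference of 4.08, and their summed level was 4400 to 8786 CPM in dividing and 631 to 1267 CPM in resting cells. The kinesin gene *Kif11*, whose motor pushes the spindle poles apart, had a mean of 92.0 CPM in dividing and 1.45 CPM in resting cells, and *Cdc20*, the activator of the anaphase-promoting complex, 34.7 and 0.670 CPM. Of 34 tested replication genes 33 were higher, with a median of 1.65 and a summed level of 2024 to 3068 CPM against 585 to 1314 CPM. *Cdc45*, a subunit of the replicative helicase, had means of 51.7 and 4.76 CPM, and *Rrm2*, the regulated subunit of ribonucleotide reductase, 249 and 40.7 CPM. The 17 tested chromatin and tubulin genes were higher in dividing cells too, with a median of 1.08.

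**Figure D2:**
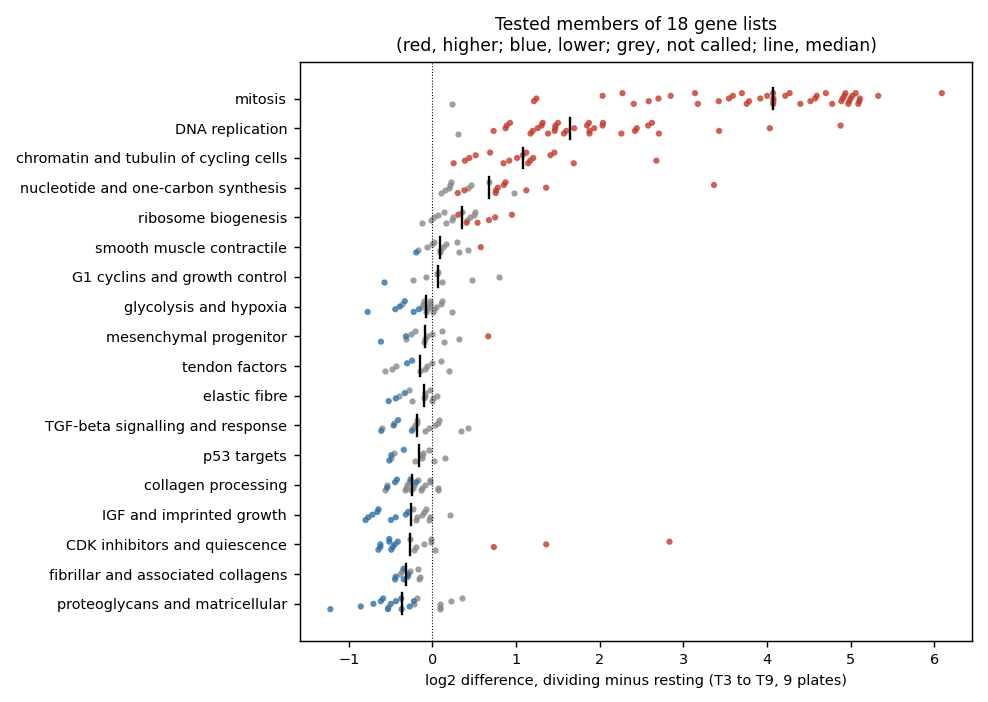
The log2 difference of dividing minus resting cells (horizontal axis, T3 to T9, 9 plates) for each tested member of 18 gene lists (rows), with genes higher in dividing cells in red, lower ones in blue, those not called in grey, and a line at the median of the list. The median of the mitosis genes lies at 4.08, and the medians of the 4 matrix lists lie between -0.37 and -0.11, with single members on either side of 0.

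Outside the cell cycle lists 618 further genes were higher in dividing cells. Those with the largest differences were almost absent from resting cells. *Depdc1a* had 355 UMIs in all dividing and 1 in all resting cells, *Cep55*, which acts in the abscission of daughter cells, 459 and 6, *Melk* 832 and 11, *Esco2*, which acetylates cohesin in S phase, 634 and 9, and *Pimreg* 833 and 11. *Shcbp1* had 722 and 14 UMIs. The helicase gene *Brip1* had 373 and 6. *Hist1h2ap* had 314 and 6, a value that is uncertain because histone genes of this family are nearly identical. Of these genes only *Shcbp1* had enough UMIs for a test in the paired cells.

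Over all cells some nucleotide synthesis genes were higher in dividing cells, and fewer ribosome biogenesis genes were. Of 19 tested nucleotide and one-carbon genes 10 were higher and none lower, with a median log2 difference of 0.68. Without the cells with pluripotency or endoderm markers 4 of 17 were higher, with a median of 0.24. In the pairs 2 of 9 were higher, with a median of 0.15. *Tk1*, the thymidine kinase of S phase, was at 81.7, 135, and 91.5 CPM in the dividing cells of the T3 plates, 102, 89.5, and 90.03 at T6, and 65.2, 89.4, and 94.5 at T9. The resting cells held 20.3, 6.24, and 2.46 CPM at T3, 13.4, 11.2, and 9.46 at T6, and 2.98, 4.04, and 11.95 at T9. The classes did not overlap, and the log2 difference was 3.36 ± 0.22 (SE, adjusted p = 3.83e-12, edgeR). *Psat1*, an enzyme of serine synthesis, was the other member higher in all 3 choices of cells, at a mean of 257 against 141 CPM.

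Of 19 tested ribosome biogenesis genes 6 were higher and none lower, with a median of 0.35. Without the cells with pluripotency or endoderm markers 1 was higher and 1 lower, and in the 14 members tested in the pairs none was called. *Nop58*, a core protein of the particles that methylate ribosomal RNA, was at 143 to 231 CPM in dividing and 90.4 to 148 CPM in resting cells and higher in 9 of 9 plates, with log2 differences of 0.68 (adjusted p = 1.82e-05), 0.44 without the marker-bearing cells (adjusted p = 0.00299), and 0.36 in the pairs (adjusted p = 0.127, edgeR). *Ddx21*, an RNA helicase of the nucleolus, went from 0.95 (adjusted p = 0.00537) to 0.31 without those cells (adjusted p = 0.417, edgeR). The part of the pluripotency and endoderm marker cells in these differences was not tested.

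Resting cells had higher levels of genes that restrain the cycle. Of 19 tested genes of kinase inhibitors and quiescence 9 were lower and 3 higher in dividing cells, with a median log2 difference of -0.27. *Cdkn1c*, a maternally expressed kinase inhibitor, was at 645, 999, and 865 CPM in dividing and 883, 1452, and 1119.5 CPM in resting cells of the T3 plates. At T6 it was at 991, 668, and 964 CPM against 1669.8, 1185, and 1260.2 CPM, and at T9 at 547, 327, and 932 CPM against 861, 799.8, and 1022 CPM. Dividing cells were lower in every plate, although the ranges over all plates overlap, and the log2 difference was -0.65 ± 0.08 (SE, adjusted p = 2e-06, edgeR).

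The value for *Cdkn1c* was -0.50 without the marker-bearing cells and -0.58 in the pairs. *Cdkn1a* was at 179.8, 627, and 402 CPM against 301, 643, and 788 CPM at T3, at 890.0, 322, and 720.2 CPM against 968, 477, and 922 CPM at T6, and at 917, 598, and 1411 CPM against 1080.3, 752, and 1813 CPM at T9, always with the dividing cells first. It was lower in dividing cells of 9 of 9 plates by a small margin, with a log2 difference of -0.45 ± 0.07 (SE, adjusted p = 7.66e-05, edgeR). *Btg2*, an antiproliferative p53 target (-0.52), and *Txnip*, which holds back glucose uptake (-0.47), completed the 4 members lower in all 3 choices of cells. The lower members also held *Foxo3*, *Cdkn2b*, *Btg1*, *Gas6*, and *Pdgfrl*, with log2 differences of -0.62, -0.62, -0.52, -0.41, and -0.49.

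The 3 members higher in dividing cells were also inhibitors by name. *Cdkn2c* (p18) was at 12.6 to 37.3 CPM in dividing and 0 to 11.2 CPM in resting cells, without overlap, *Cdkn2d* (p19) at 30.5 to 59.1 and 18.9 to 41.7 CPM, and *Rbl1* (p107), a pocket protein that is itself an E2F target, at 17.3 to 38.2 and 3.12 to 14.9 CPM. Each was higher in 9 of 9 plates, and in the pairs none of the 17 members of the list tested was called higher. The cyclin D gene *Ccnd2*, which acts in G1, was lower in dividing cells of 8 plates, at a mean of 189.9 against 257 CPM (log2 difference -0.58 ± 0.13, SE, adjusted p = 0.00238, edgeR), and was the single call among 8 tested G1 genes. Of 12 tested p53 targets 3 were lower, *Plk2*, *Trp53inp1*, and *Zmat3*, with log2 differences of -0.52, -0.49, and -0.34. In the pairs they had -0.13, -0.32, and -0.34 and none was called (adjusted p = 0.653, 0.311, and 0.143, edgeR).

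Genes of insulin-like growth factor (IGF) signaling and imprinted growth control, many of which the embryo uses to set its size, were lower in dividing cells for 9 of 18 tested members, with a median of -0.26 and none higher. *Igfbp4*, a secreted protein that binds IGFs, was at 636, 997, and 801 CPM against 944, 1558, and 1196 CPM at T3, at 1358, 1070.2, and 1638 CPM against 1963, 1403, and 2097 CPM at T6, and at 1107, 685, and 1432 CPM against 1847, 1432, and 2176 CPM at T9, with the dividing cells first. Every plate had the lower level in its dividing cells, and the log2 difference was -0.66 ± 0.06 (SE, adjusted p = 1.18e-08, edgeR), -0.51 without the marker-bearing cells, and -0.38 in the pairs. The ligand gene *Igf2*, at a mean of 7000.3 against 9405 CPM, was lower in dividing cells of 9 of 9 plates (-0.50 ± 0.07, SE, adjusted p = 5.35e-06, edgeR).

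*Igf2*, *Igfbp4*, and *Igfbp5*, a further binding protein (-0.64), were the members lower in all 3 choices of cells. *Igf1* had a log2 difference of -0.72 over all cells and -0.38 in the pairs, where it was not called (adjusted p = 0.093, edgeR). The remaining calls over all cells were *Igfbp6*, *Meg3*, *H19*, *Igf2r*, the receptor that clears IGF2, and *Dlk1*, between -0.80 and -0.29.

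**Figure D3:**
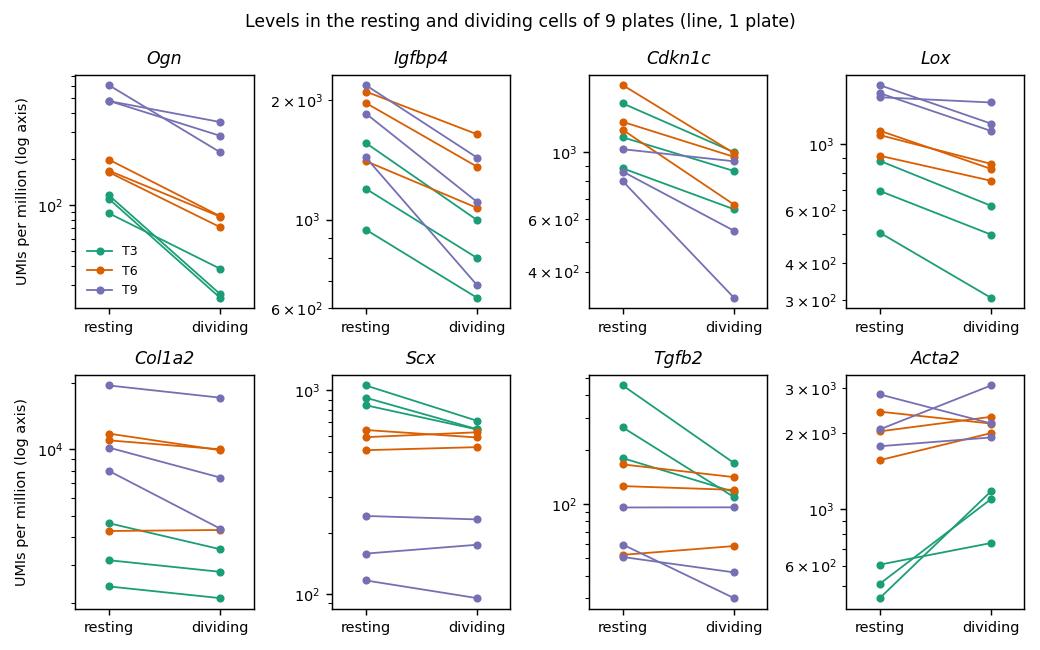
Levels in CPM (log axis) of 8 genes in the resting and the dividing cells, with a line for each of the 9 plates, colored by time point. *Ogn*, *Igfbp4*, *Cdkn1c*, and *Lox* slope down in every plate, whereas *Acta2* slopes up in all 3 plates at T3 and in 2 of 3 at T6 and at T9.

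The proteoglycans of tendon matrix were lower in dividing cells. Of 20 tested proteoglycan and matricellular genes 12 were lower and none higher, with a median log2 difference of -0.37. Without the marker-bearing cells 8 were lower and 2 higher, *Fn1* (fibronectin, 0.23, adjusted p = 0.00106) and *Tnc* (tenascin-C, 0.39, adjusted p = 0.0149, edgeR), and the median was -0.20. *Ogn* (osteoglycin), a small leucine-rich proteoglycan that binds collagen fibrils, was at 38.1, 24.6, and 26.0 CPM in dividing and 87.9, 109, and 115 CPM in resting cells of the T3 plates. At T6 the levels were 84.2, 83.5, and 71.4 CPM against 197, 167, and 163 CPM, and at T9 347, 221, and 282 CPM against 477, 605, and 478 CPM. Within each time point the classes did not overlap, and in both classes each later time point had higher levels in all plates. The log2 difference was -1.22 ± 0.13 (SE, adjusted p = 4.39e-08, edgeR), -1.01 without the marker-bearing cells, and -0.88 in the pairs (adjusted p = 3.18e-05, edgeR).

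*Aspn* (asporin), a relative of decorin, was at 27.2, 19.96, and 28.1 CPM against 37.2, 106, and 66.3 CPM at T3, at 131, 137, and 123 CPM against 202, 171, and 218 CPM at T6, and at 181, 195, and 248 CPM against 339, 328, and 355 CPM at T9, dividing cells first. These groups likewise did not overlap within a time point, and the log2 difference was -0.86 ± 0.13 (SE, adjusted p = 1.61e-05, edgeR). *Ogn*, *Aspn*, *Bgn* (biglycan, -0.53), and *Sparc*, a collagen-binding protein (-0.22), were lower in all 3 choices of cells. *Fmod* (fibromodulin), which guides fibril assembly, was lower over all cells (-0.71, adjusted p = 0.00172, edgeR) and was not called in the pairs (-0.43, adjusted p = 0.209, edgeR), as was *Thbs2*, a matricellular glycoprotein (-0.62 and -0.34). *Dcn*, *Lum*, *Postn*, *Mgp*, *Cilp*, and *Ccn1* made up the rest, between -0.59 and -0.27.

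Some of the collagens were lower in dividing cells too. Of 12 tested fibrillar and associated collagen genes 6 were lower and none higher, with a median of -0.32, and without the marker-bearing cells 3 were lower, with a median of -0.16. *Col1a2*, a chain of type I collagen, was at 2114, 3523, and 2782 CPM against 2388, 4620.2, and 3140.1 CPM at T3, at 9898, 4305, and 9992 CPM against 11772, 4259, and 10971 CPM at T6, and at 7441, 4367, and 17126 CPM against 10170.0, 7975, and 19454 CPM at T9, dividing cells first. The classes overlapped over the plates, and the third T9 plate had the highest level in both. The log2 difference was -0.34 ± 0.06 (SE, adjusted p = 0.000312, edgeR), with the dividing cells lower in 8 of 9 plates. *Col1a1*, the other chain, had -0.29 ± 0.06 over all cells (SE, adjusted p = 0.00229), -0.13 without the marker-bearing cells (adjusted p = 0.0375), and -0.20 in the pairs (adjusted p = 0.0161, edgeR). *Col3a1*, *Col5a1*, *Col6a3*, and *Col11a1* were lower over all cells, and of these *Col11a1* was also called in the pairs (-0.51).

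Enzymes and chaperones that handle collagen included 5 lower genes among 22 tested and none higher, with a median of -0.25. *Lox*, lysyl oxidase, which crosslinks collagen and elastin, was at 622, 306, and 498 CPM against 879, 506, and 697 CPM at T3, at 754, 859, and 826 CPM against 914, 1072, and 1109 CPM at T6, and at 1171, 1107, and 1378 CPM against 1575, 1481, and 1435 CPM at T9, dividing cells first. The dividing cells were lower in every plate, with a log2 difference of -0.45 ± 0.06 (SE, adjusted p = 3.45e-06, edgeR), and *Lox* was the member of its list called in all 3 choices of cells. *Serpinh1* (HSP47), the collagen chaperone, had -0.26, and *P3h3*, *Crtap*, and *P4hb* lay between -0.54 and -0.19. Of 13 tested elastic fiber genes *Eln*, *Mfap4*, and *Mfap2* were lower over all cells (-0.52, -0.44, and -0.33), and in the pairs they had -0.28, -0.22, and -0.14 and none was called (adjusted p from 0.114 to 0.362, edgeR).

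The tendon transcription factors showed small or uncertain differences. *Scx* was at 643, 645, and 709 CPM in dividing and 846, 921, and 1058 CPM in resting cells of the T3 plates, at 587, 623, and 526 CPM against 639, 589, and 508 CPM at T6, and at 232, 95.1, and 174 CPM against 241, 116, and 158 CPM at T9. At T3 the classes did not overlap, and at T6 and T9 they did. The log2 difference over the 3 time points was -0.24 ± 0.08 (SE, adjusted p = 0.0315, edgeR), but without the marker-bearing cells it was -0.10 (adjusted p = 0.449) and in the pairs -0.21 (adjusted p = 0.159, edgeR), so the call rested on the cells chosen. It also ended without the first, the second, or the third T3 plate or the second T9 plate, with adjusted p of 0.0764, 0.0813, 0.152, and 0.0534 (edgeR). By time point it was -0.52 at T3 (adjusted p = 0.00198), -0.05 at T6, and -0.13 at T9, and a change between the time points did not pass the test (adjusted p = 0.538, edgeR).

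The share of cells with a *Scx* UMI, counted in 3000 UMIs drawn from each cell, was 63.3%, 68.5%, and 70.1% in the dividing and 77.6%, 75%, and 80.9% in the resting cells of the T3 plates. At T6 it was 69.0%, 62.8%, and 61.8% against 70.0%, 60.3%, and 49.0%, and at T9 34.4%, 22.4%, and 23.1% against 25.4%, 17.0%, and 19.5%. Resting cells had the higher share in all 3 T3 plates and dividing cells in all 3 T9 plates, and at T6 the difference ran from -0.952 to 12.9 points with the dividing cells higher in 2 plates. Over the 9 plates the share differed by 0.0911 points (SD 9.06, p = 0.973, exact sign-flip permutation). With all UMIs, where the dividing cells are deeper, it was higher in dividing cells by 6.85 points (p = 0.0273, exact sign-flip permutation), with p = 0.0547 without any 1 of the T6 or T9 plates (exact sign-flip permutation).

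*Egr1*, an early response factor used in tendon, was lower over all cells (-0.30, adjusted p = 0.0021, edgeR) and had -0.06 in the pairs (adjusted p = 0.772, edgeR). *Tnmd* (tenomodulin), the membrane protein of mature tenocytes, was at 4.22 to 178 CPM in dividing and 12.3 to 139 CPM in resting cells, lower in dividing cells of 5 plates and higher in 4, with a log2 difference of 0.10 ± 0.27 (SE, adjusted p = 0.863, edgeR). *Mkx* (mohawk) was at 8.72 to 31.4 CPM against 14.2 to 37.5 CPM and was not called (-0.57 ± 0.24, SE, adjusted p = 0.111, edgeR). It was lower in the dividing cells of every plate but the third T9 plate. *Sox9*, the cartilage factor, was lower over all cells (-0.40 ± 0.13, SE, adjusted p = 0.0359) and was called neither without the marker-bearing cells (-0.32, adjusted p = 0.126) nor in the pairs (-0.10, adjusted p = 0.794, edgeR), nor without any 1 of 6 plates. *Aldh1a2*, the retinoic acid synthesizing enzyme, was at 11.5 to 296 CPM against 28.2 to 184 CPM and was not called over the 3 time points (0.32 ± 0.16, SE, adjusted p = 0.211, edgeR). In the T3 plates it was at 239, 296, and 257 CPM in dividing and 176, 184, and 147 CPM in resting cells, without overlap. The T6 levels were 75.9, 82.3, and 62.1 CPM against 47.1, 62.5, and 63.8 CPM. The T9 levels were 25.1, 11.5, and 104 CPM against 48.7, 28.2, and 52.1 CPM.

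Of 17 tested TGF-β signaling and response genes 4 were lower and none higher in dividing cells, with a median of -0.19. The ligand gene *Tgfb2* was at 117, 168, and 109 CPM against 179, 453, and 265 CPM at T3, at 119.6, 58.5, and 141 CPM against 126, 52.3, and 166 CPM at T6, and at 30.1, 41.8, and 95.8 CPM against 59.6, 50.8, and 95.6 CPM at T9, dividing cells first. The classes did not overlap at T3 and overlapped later. The log2 difference was -0.61 ± 0.15 (SE, adjusted p = 0.0044, edgeR) over all cells and -0.48 in the pairs (adjusted p = 0.0685, edgeR). These counts are of the mouse gene in the cells, not of the added human protein.

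*Tgfbi*, a secreted target of the pathway, was lower in 9 of 9 plates, at 131 to 539.6 CPM against 208 to 603 CPM (-0.41 ± 0.07, SE, adjusted p = 0.000143, edgeR), and was called in all 3 choices of cells. *Tgfb3*, a further ligand, had -0.46 and *Pmepa1*, a feedback inhibitor, -0.25 over all cells.

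Contractile genes, which TGF-β raises in many fibroblasts, did not move as a group. Of 13 tested, *Smtn* (smoothelin) was higher and *Tpm1* (tropomyosin) lower in dividing cells, and the median was 0.10. *Smtn* was higher in 9 of 9 plates, at 60.5 to 223 CPM against 23.7 to 148 CPM (0.58 ± 0.14, SE, adjusted p = 0.00611, edgeR), and was not called in the pairs (0.48, adjusted p = 0.107, edgeR). *Acta2*, smooth muscle actin, was at 737, 1097, and 1178 CPM in dividing and 605, 509, and 447 CPM in resting cells of the T3 plates. At T6 it was at 2177, 1996, and 2314 CPM against 2425, 1563, and 2029 CPM, and at T9 at 2179.9, 1919.7, and 3076 CPM against 2836, 1772, and 2065 CPM.

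Its log2 difference was 0.30 ± 0.12 over all cells (SE, adjusted p = 0.0904), 0.45 without the marker-bearing cells (adjusted p = 0.00193), and 0.06 in the pairs (adjusted p = 0.808, edgeR). Without the first T9 plate it was 0.40 (adjusted p = 0.0173, edgeR). The call for *Acta2* therefore depended on which cells and plates were compared.

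**Figure D4:**
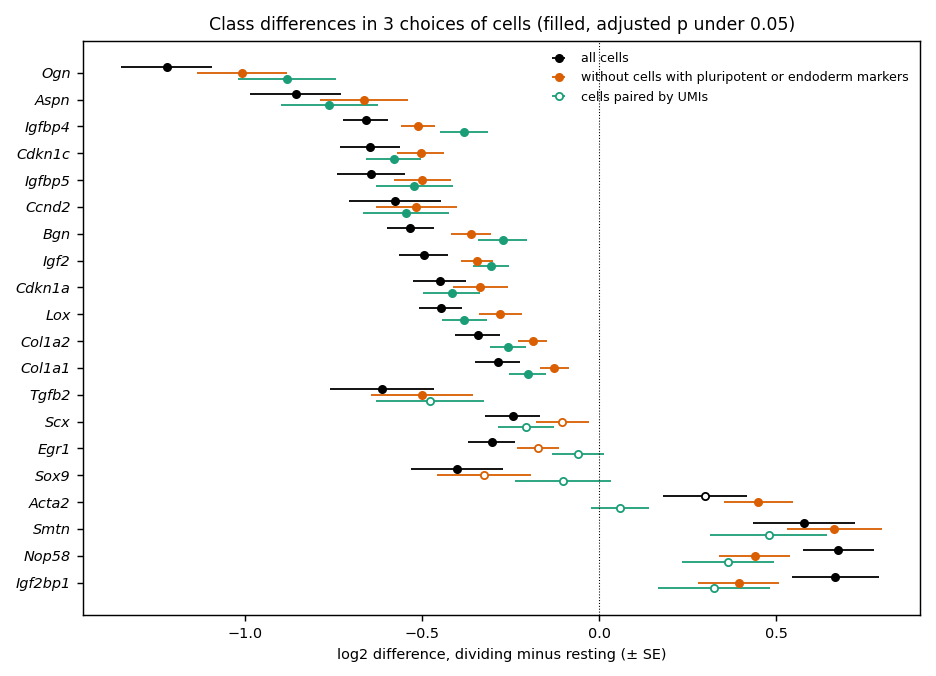
The log2 difference (± SE) of 20 genes between dividing and resting cells in all cells (black), without cells with pluripotency or endoderm markers (orange), and in cells paired by UMIs (green), with filled points for an adjusted p under 0.05. *Ogn* keeps filled points left of 0 in all 3 choices (-1.22, -1.01, and -0.88), whereas *Scx* is filled for all cells alone.

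Glycolysis and hypoxia genes were lower in dividing cells for 6 of 21 tested members and higher for none, with a median of -0.08. *Aldoa* (aldolase) was lower in 9 of 9 plates (-0.33, adjusted p = 0.000236, edgeR) and in all 3 choices of cells. The hypoxia-responsive *Ndrg1* and *Vegfa* had -0.77 and -0.39, and *Hk1*, *Gpi1*, and *Pgk1* lay between -0.44 and -0.16. Of 13 tested mesenchymal progenitor genes *Sox4* (-0.62) and *Twist1* (-0.32) were lower and *Igf2bp1*, an RNA-binding protein of embryonic cells, was higher (0.67), and in the pairs none was called.

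By the size of the difference, the 10 genes furthest below 0 with the same sign in 9 plates were *Tcp11l2*, *Ogn*, *Kdm7a*, *Angpt1*, *Fndc5*, *Fgf9*, *Ube2e2*, *Plpp2*, *Fam214a*, and *Gm13680*. *Tcp11l2*, at 3.58 to 11.5 CPM against 12.1 to 39.3 CPM, had -1.80 ± 0.25 (SE, adjusted p = 5.22e-06, edgeR) and was the 1 gene (0.0120% of those tested) called lower whose classes did not overlap. On the higher side 170 of the 8311 tested genes did not overlap, and these include cell cycle genes such as *Kif11*. *Fgf9*, a fibroblast growth factor, was at 6.65 to 39.8 CPM against 19.6 to 54.3 CPM and was called in all 3 choices of cells, with -0.93 over all cells and -1.03 in the pairs. *Itm2a*, a membrane protein of differentiating mesenchyme (-0.80), and *Esr1*, the estrogen receptor (-0.71), were also lower in all 3 choices and were chosen after their values were seen.

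For several of these genes the level was graded by the marker sum, which also followed depth. The median UMI count was 6593 in cells with a sum of 0, 7586 with 1 to 3, 8783 with 4 to 9, and 10550 with 10 or more. *Igfbp4* had means over plates of 1624, 1486, 1360, and 903 CPM in these 4 grades, *Cdkn1c* 1139, 1077, 942, and 651 CPM, and *Lox* 1074, 980, 929, and 774 CPM. *Ogn* had 267, 275, 222, and 68.3 CPM, so that most of its difference lay in the cells with the highest sums. *Stmn1*, the tubulin-binding stathmin, had 152, 164, 223, and 567 CPM. Between a sum of 4 to 9 and a sum of 10 or more, *Lox* was lower in 9 of 9 plates and *Cdkn1c* and *Ogn* in 8.

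At each time point alone fewer genes were called. At T3 312 genes (3.75%) were higher and 160 (1.93%) lower in dividing cells, at T6 242 (2.91%) and 36 (0.433%), and at T9 445 (5.35%) and 193 (2.32%). The difference between dividing and resting cells changed over the 3 time points for 1 gene of 8311 (0.012%) by edgeR's F test, with 555 genes (6.68%) at an unadjusted p under 0.05, and DESeq2 called 5. Without the third T9 plate 28 genes were called, without the first T9 plate 0, and without any other plate 1 to 3. In the paired cells 0 genes were called. The 1 gene called over all cells and plates was *Stmn1*. Its level in dividing cells was 674, 547, and 643 CPM at T3, 374, 432, and 346 CPM at T6, and 325, 333, and 289 CPM at T9.

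In resting cells *Stmn1* was at 298, 284, and 241 CPM at T3, 128, 135, and 125 CPM at T6, and 42.7, 62.1, and 51.1 CPM at T9. It was lower at later times in both classes, and the dividing cells were above the resting cells in every plate. The log2 difference was 1.16 at T3, 1.52 at T6, and 2.52 at T9, and that of T9 exceeded that of T3 by 1.35 ± 0.20 (SE, adjusted p = 0.00441, edgeR).

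**Figure D5:**
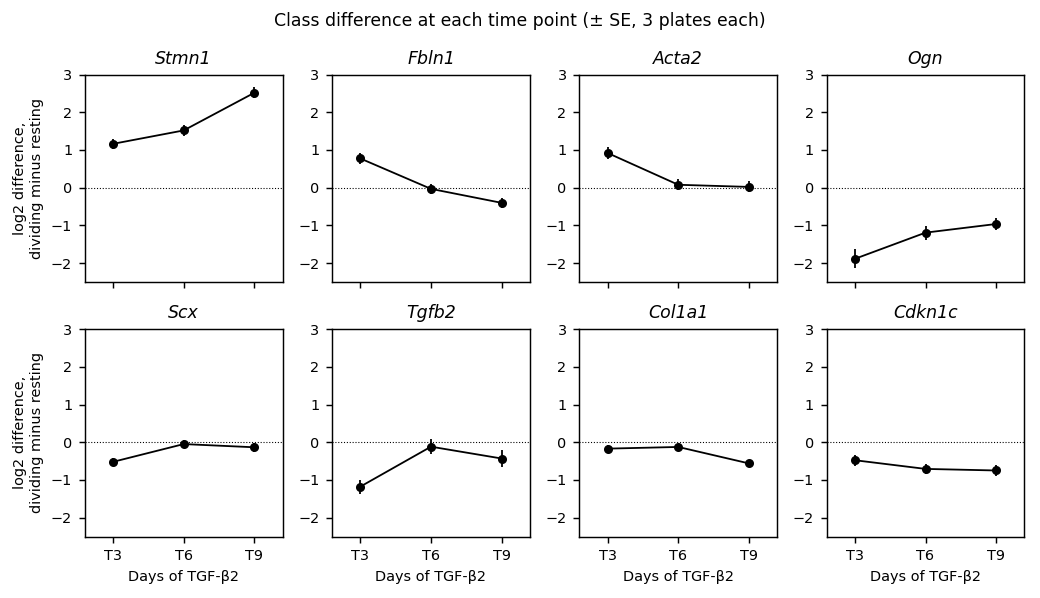
The log2 difference of dividing minus resting cells (± SE, 3 plates each) at T3, T6, and T9 for 8 genes. *Stmn1* goes from 1.16 to 2.52 and *Fbln1* from 0.77 to -0.40, and for *Acta2*, *Ogn*, *Scx*, *Tgfb2*, *Col1a1*, and *Cdkn1c* no change over time passed the test.

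*Fbln1* (fibulin 1), a glycoprotein of elastic matrix, had opposite directions at T3 and T9. At T3 it was at 272, 403, and 332 CPM in dividing and 145, 309, and 145 CPM in resting cells, at T6 at 359, 218, and 384 CPM against 325, 234, and 381 CPM, and at T9 at 324, 274, and 429 CPM against 444, 343, and 488 CPM. Dividing cells were higher in all 3 plates at T3 and lower in all 3 at T9. The log2 difference was called at T3 (0.77, adjusted p = 0.00132, edgeR) and was not called at T9 (-0.40, adjusted p = 0.0568, edgeR). The contrast of T9 and T3 was -1.18 ± 0.20 (SE, adjusted p = 0.0162, edgeR), while the test over the 3 time points gave an adjusted p of 0.0596 (edgeR). *Fbln1* was chosen after its values were seen.

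Other genes passed the threshold at a single time point, but the test of a change over time did not pass for them. *Acta2* was higher in dividing cells at T3 (0.92, adjusted p = 0.0005) and had 0.08 at T6 and 0.02 at T9 (adjusted p for a change over time = 0.286, edgeR). *Tgfb2* was lower at T3 (-1.18, adjusted p = 9.72e-05) with an adjusted p of 0.337 for a change (edgeR), and *Col1a1* was lower at T9 (-0.56, adjusted p = 4.1e-05) with 0.34 for a change (edgeR). *Ogn* was lower at each of the 3 time points (-1.89, -1.19, and -0.96).

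At T0 the comparison had 36 resting cells, and 179 of 10192 tested genes (1.76%) were higher and 32 (0.314%) lower in dividing cells (edgeR, 3 plates). Without the second T0 plate 63 genes were called in all, and without the third 85. Of 48 tested mitosis genes 39 were higher, and of 35 replication genes 14. Of the dividing T0 cells 187 of 826 (22.6%) held at least 3 UMIs of pluripotency or endoderm markers, against 1 of 36 resting cells. Epithelial markers summed to 379, 471, and 308 CPM in the dividing cells of the 3 T0 plates. In the resting cells, which numbered 7, 11, and 18, they summed to 138, 1537, and 1093 CPM. The T0 comparison was repeated neither without such cells nor in pairs of similar UMI counts. Median UMI counts of the dividing cells were 2.53, 2.11, and 1.65 times those of the resting cells in the 3 T0 plates. *Cdkn1a* was at 323, 277, and 259 CPM in dividing and 1107, 951, and 626 CPM in resting T0 cells, without overlap (-1.42, adjusted p = 1.61e-07, edgeR). *Cdkn1c* was at 819.7, 859, and 791 CPM against 1384, 1332, and 1435 CPM, which did not overlap either but was not called (-0.58, adjusted p = 0.11, edgeR).

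*Igfbp5* was lower in dividing T0 cells as well (-1.15, adjusted p = 0.00348, edgeR). *Igfbp4*, lower in dividing cells under TGF-β2, had a log2 difference of 0.06 at T0 (adjusted p = 0.964, edgeR), and no test compared the time points for it. *Ogn*, *Lox*, and *Tnmd* had too few UMIs at T0 to be tested.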

How the data were processed

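UMI counts from the CEL-Seq2 plates were used as deposited. Per the labels and the methods, the authors demultiplexed 6-base UMIs and 9-base cell barcodes with UMI-tools 1.0.1, aligned to GRCm38 with HISAT2 2.2.1, and counted with featureCounts, without normalization. The table held 29629 Ensembl genes and 4608 wells, and 3 rows without an Ensembl identifier (0.0642% of UMIs) were left out. Doublets were excluded at sorting, and no doublet caller was run. The bulk tendon counts were not used here.

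UMIs were summed by plate and class (295664 to 1932731 UMIs per sum) and fitted with edgeR 4.0.16 in R 4.3.3 (filterByExpr, TMM, quasi-likelihood, plate as block). The 8 markers were kept in the totals and left out of the tests. Paired cells and single time points were fitted likewise, and shares were tested by exact two-sided permutation in Python 3.11.15 (scipy 1.17.1). On simulated sums of 8110 genes, 45.8% of 96 genes changed by 0.5 log2 and 90.3% of 93 changed by 1 were recovered, with 9 false calls. Alternatives included DESeq2 1.42.0. The paired cells, the cells without epithelial markers, the range of 5000 to 10000 UMIs, and the time fits on these choices of cells were added after the data were seen.

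The members and gene lists were chosen with earlier results of these data known. Named genes were the markers, the called members of each list with the largest differences at 20 CPM or more, the 10 largest in each direction outside the cell cycle lists (some of the higher ones are not reported here), and 8 fixed tendon genes. *Bgn*, *Igf2*, *Igfbp5*, *Cdkn1a*, *Btg2*, *Txnip*, *Itm2a*, *Esr1*, *Stmn1*, *Fbln1*, *Fn1*, and *Tnc*, and further list members given by their log2 difference alone, were added after their values were seen. CPM are plain proportions, and log2 differences include TMM factors. Classes of a plate deviated together from their group means (correlations 0.176 to 0.646 over genes).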

Additional observations from a re-analysis of the deposited data

Results flagged for a closer look

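For *Stmn1* the class difference was larger at T9 than at T3 by 1.35 on the log2 scale, and it drew attention because the test of this difference passed the threshold (adjusted p = 0.00441, edgeR). For *Fbln1* the same contrast was -1.18 (adjusted p = 0.0162, edgeR), with every T3 plate higher and every T9 plate lower in its dividing cells. By the test over the 3 time points no gene was called in the paired cells or without the first T9 plate. The share of *Scx*-positive cells, in 3000 UMIs of each cell, was lower in dividing cells of all T3 plates (mean -10.5 points ± 3.90, SD, n = 3) and higher in those of all T9 plates (5.98 points ± 2.75, SD, n = 3), a difference of 16.5 points with p = 0.10 (exact permutation over 20 splits, the smallest they can give).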

How the results depend on the processing

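The share of dividing cells at T9 minus T3 ranged from -26.8 to -23.9 points without 1 replicate each, with the call kept, and was -24.0 points (p = 0.167) or -25.7 points (p = 0.0667, exact permutation) within the plates with more or fewer reads without a feature, which allow 12 and 30 splits. The resting share ranged from 15.2 to 22.4 points, passed the test without the second T6 plate, and was 30.2 points after thinning (p = 0.00714, exact permutation). In all, 269 genes were called in paired cells, which are also fewer cells and genes tested (189 higher, 80 lower), 140 among cells of at least 5000 and under 10000 UMIs (90 and 50), 480 after thinning to 3000 UMIs (284 and 196), 698 with classes remade after it (365 and 333), 687 in plates with fewer reads without a feature (447 and 240), 509 in the others (372 and 137), and 409 without the plate block (364 and 45). The low-count filter left out gave 1108 higher and 341 lower, and a dividing class from a sum of 10 gave 839 lower. Without 1 replicate each the totals were 978 to 1259 (583 to 719 higher, 395 to 547 lower). A change over time was called for 5 genes by DESeq2, 59 without the filter, 7 after thinning, 5 with the replicate block, 0 in paired cells, and 0 to 28 without 1 replicate. At T0 DESeq2 called 46 genes (33 higher, 13 lower), the unfiltered table gave 20 lower, and the totals without 1 replicate were 63 to 187 (50 to 156 higher, 12 to 31 lower). The *Scx*-positive share was 6.85 points with all UMIs and ranged from -1.50 to 1.89 points without 1 replicate, below 0 in 5 cases (-0.216, -1.50, -1.02, -0.579, and -0.339). Of 52 named genes followed over the settings 3 changed sign. *Sox9* had 0.0845 among cells of at least 5000 and under 10000 UMIs, *Tnmd*, not called, had -0.35 by DESeq2, -0.15 in plates with fewer reads without a feature, and -0.21 to 0.37 without 1 replicate, and *Fbln1*, not called over the 3 time points, had -0.0371 from a sum of 10, -0.0032 without the plate block, and -0.0471 to 0.14 without 1 replicate. In all, 41 lost their call in at least 1 setting. Of the genes named, *P3h3*, *Crtap*, *Tpm1*, *Hk1*, *Meg3*, *Twist1*, *Pmepa1*, *Zmat3*, *Igfbp6*, and *Vegfa* lost theirs without 1 of 7, 8, 5, 5, 4, 4, 4, 1, 1, and 1 plates (adjusted p up to 0.162, edgeR), the single plates being the second T6, the second T9, and the third T3 plate for the last 3. Replicate numbers did not pair the plates (correlations of -0.0449 to 0.0449), and with the number as a block the dividing share gave p = 0.0278 (exact permutation over 216 splits). Depth limits the low genes, and 22 tested genes had under 10 UMIs in all resting cells. The causes were not tested.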

Other observations

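The pluripotency marker *Utf1*, a chromatin factor of embryonic stem cells, was at 0 to 209 CPM in the dividing and 0 to 16.1 CPM in the resting cells of T3 to T9, higher in the dividing cells of 8 plates. *Mt2*, a metallothionein that buffers zinc and copper, was at 15.5 to 716 CPM in dividing and 0 to 47.6 CPM in resting cells, and its highest value was in the second T9 plate, which also had the highest summed level of pluripotency markers. Both were chosen after their values were seen, and the part of pluripotent cells in the *Mt2* values was not tested.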
